A study of Mus musculus with 9 samples.

Results

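Mitochondrial DNA encodes a small set of RNAs that every cell with respiring mitochondria makes, and their levels were followed here in mouse morulae whose sires had or had not been given ethanol. The genes were all rows of the count files whose symbol begins with mt-, which are 37 of 53819 rows and comprise 13 messenger RNAs, 2 ribosomal RNAs and 22 transfer RNAs. The morulae, which are embryos at the stage when the blastomeres compact, were of the C57BL/6J strain and were made by in vitro fertilization with the Nakagata protocol in CARD media. Total RNA was sequenced in 9 libraries, 3 from control sires, 3 from sires given 6% ethanol and 3 from sires given 10% ethanol. The labels do not say how many embryos or sires stand behind a library or how the ethanol was given, so a p-value here reflects how far these libraries scatter, part of which may be technical. In bulk RNA of this kind, fewer mitochondria, fewer transcripts per mitochondrion and more RNA from the nuclear genome in the same library cannot be told apart.

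The mitochondrial genome is a circle inherited through the egg, so that the sire passes on nuclear genes and not, as a rule, mitochondrial ones. Both of its strands are copied by the polymerase POLRMT, with the factors TFAM and TFB2M, into long precursors in which tRNAs sit between the other genes and are cut out to free them. The mRNAs all encode subunits of the respiratory chain and of ATP synthase, and most of them then receive short poly(A) tails. The 2 rRNAs enter the mitochondrial ribosome that translates the mRNAs. In cleaving mouse embryos the mitochondria are those of the oocyte, and oxidative metabolism grows in importance as the blastocyst forms.

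Library totals ran from 6263465 to 27619281 counts. The count column of 4 files (control 2, 6% ethanol 1, 10% ethanol 1 and 10% ethanol 2) carried a long header that names the aligner RNA STAR, and that of the other 5 files a short one. The long-header libraries are also the deepest 4, and the sources used here do not say what the header form stands for, so values are given by header form where it moves with a result. The morula label was checked against 12 genes of the cleavage-stage and early blastocyst embryo, of which at most 1 was at 0 in a library. Pou5f1, a pluripotency factor, had 27.9 to 84.4 CPM (the usual scaling of a gene's counts to the library total) and Tead4, a factor of the trophectoderm, 58.3 to 199 CPM. Others varied more, with Gata3 at 4.58 to 403, Krt8 at 2.55 to 130 and Krt18 at 25.5 to 760 CPM, and Sox2 was at 0 in 2 libraries. A list of 10 oocyte transcripts summed to 15.5 to 56.1 CPM. In 6% ethanol 2, the library with the lowest total, 8 of the 10 were at 0 and the sum was 44.4 CPM. Whether the libraries differ in stage was not tested. Sperm genes summed to at most 2.93 CPM and blood genes to at most 0.264 CPM. Among cumulus and granulosa genes Fshr, Inhba and Has2 were at 0 in every library, and the sum for the list was 4.48 to 75.7 CPM, with Amhr2 at 0.907 to 73.8 CPM and Star at 0 to 5.90 CPM.

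Mitochondrial genes made up 7.05 to 15.5 percent of all counts, depending on the library. Most of this was a single gene, mt-Rnr2, the 16S rRNA of the large mitochondrial ribosomal subunit, at 4.44 to 14.7 percent. The 13 mRNAs together took 0.572 to 4.42 percent. The 22 tRNAs, which are too short to be well represented in most RNA-seq libraries, took 0.000943 to 0.00809 percent. The 12S rRNA mt-Rnr1, of the small subunit, took only 0.0204 to 0.142 percent, so that mt-Rnr2 had 31.3 to 434 counts for each count of mt-Rnr1, although both are transcribed from the same stretch of the genome. The highest of these ratios was in control 2 and the lowest in 6% ethanol 2.

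**Figure D1:**
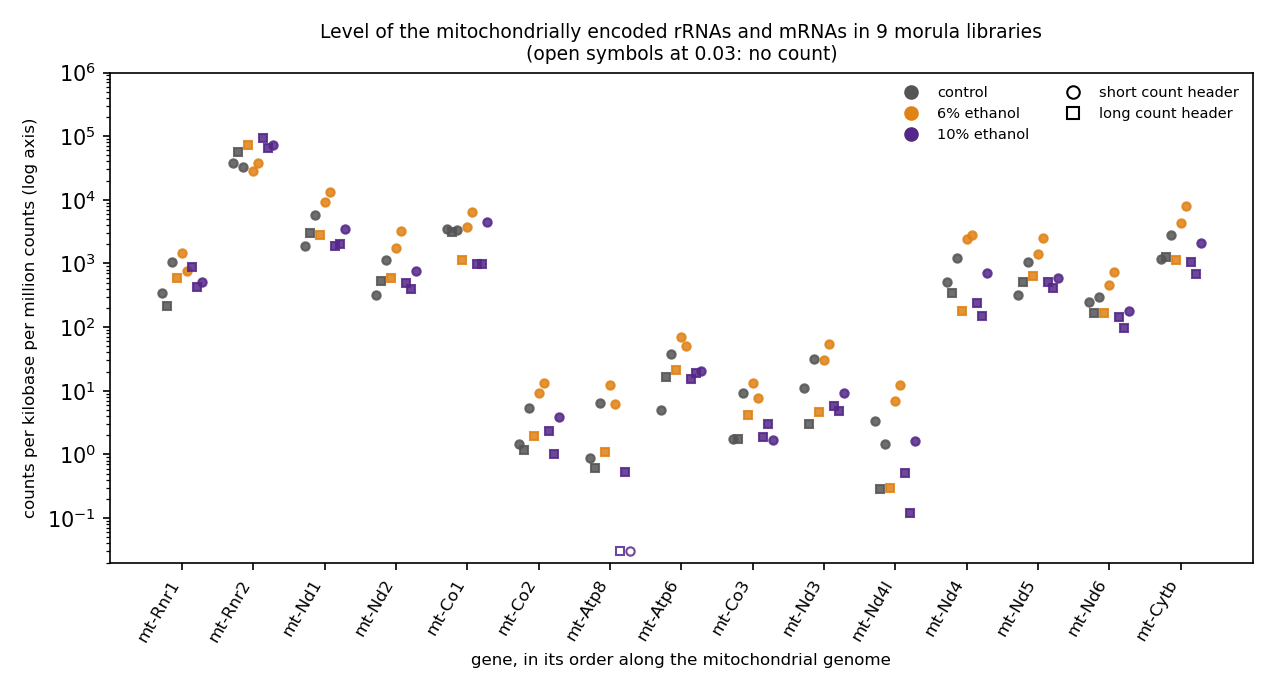
CPM per kilobase (log axis) of the 2 rRNAs and 13 mRNAs in genome order, each point a library, coloured by sire treatment and shaped by count header. The genes from mt-Co2 to mt-Nd4l lie at 71.0 or less in every library, while the 7 other mRNAs lie at 96.8 or more.

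Set per kilobase of gene, so that genes can be compared, the mRNAs fell into 2 sets that did not overlap in any library. CPM per kilobase ranged from 96.8 to 13451 over mt-Nd1, mt-Nd2, mt-Co1, mt-Nd4, mt-Nd5, mt-Nd6 and mt-Cytb. They ranged from 0 to 71.0 over mt-Co2, mt-Atp8, mt-Atp6, mt-Co3, mt-Nd3 and mt-Nd4l. The low set is an unbroken run of mRNA genes along the circle, from mt-Co2 to mt-Nd4l, and the 7 high genes held 99.7 to 99.9 percent of the mitochondrial mRNA counts of each library. mt-Nd1, a complex I subunit, ranked highest per kilobase in 6 libraries and mt-Co1, the catalytic subunit of cytochrome c oxidase, in 3 (control 1, control 2 and 10% ethanol 3). mt-Cytb, the cytochrome b of complex III, ranked directly behind them or between them in every library. mt-Nd6, the only mRNA gene on the opposite coding strand to the other 12, was the lowest of the high set in every library.

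The low set lies in a stretch of the mitochondrial genome that has a near-identical copy in the nuclear genome. When the mitochondrial transcripts were aligned to all other transcripts of the mouse annotation GENCODE M21, 11 of the 13 mRNAs had a copy of at least 90% identity over 200 bases or over 90% of their length. Of these, 5 had a copy of at least 99% identity over nearly their whole length, all on chromosome 1. They were mt-Co2 (pseudogene Gm28661, 100 percent over 681 of 684 bases), mt-Atp6 (Gm10925, 100 percent over 678 of 681), mt-Co3 (Gm28437, 100 percent over 783 of 784), mt-Nd3 (Gm28438, 99.7 percent over 345 of 348) and mt-Nd4l (Gm10222, 100 percent over 294 of 297). The copy also covers the ends of the flanking genes, with the last 483 bases of mt-Co1 in Gm29216 at 99.8 percent and the first 876 of the 1378 bases of mt-Nd4 in Gm28439 at 100 percent. A further copy of mt-Co1 on chromosome 2, Gm13340, matched all 1545 of its bases at 97.6 percent. mt-Nd1 had no copy that met the criteria. Those of mt-Nd5, mt-Nd6 and mt-Cytb were at most 95.2 percent identical, and mt-Nd2 had a copy of 96.7 percent over 510 of its 1038 bases. mt-Atp8 had no such copy among the annotated transcripts, but it lies between mt-Co2 and mt-Atp6 and overlaps the start of mt-Atp6.

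The sequences below, from the GENCODE M21 transcripts (build GRCm38), show how little separates some pairs and how much separates others; each is written 5′ to 3′ on the strand of the transcript, with bases that differ within a pair in capitals and positions counted from 1 at the first base of the mitochondrial gene. In a stretch of mt-Co2 nothing distinguishes the gene from its copy. In mt-Nd3 the difference T3C is the only 1 over 345 bases, and in mt-Co1 A1066T is the only 1 over 483. In 61 bases of mt-Cytb and its copy on chromosome 4 there are 4 differences, T564C, C567T, G570A and C591T.
mt-Co2, bases 301 to 361: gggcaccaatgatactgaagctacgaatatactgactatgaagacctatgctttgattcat
Gm28661: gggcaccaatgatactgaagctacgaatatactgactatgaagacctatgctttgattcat
mt-Nd3, bases 1 to 33: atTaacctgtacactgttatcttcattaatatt
Gm28438: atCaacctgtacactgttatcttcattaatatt
mt-Co1, bases 1063 to 1096: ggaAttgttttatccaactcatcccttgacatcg
Gm29216: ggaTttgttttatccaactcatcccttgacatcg
mt-Cytb, bases 541 to 601: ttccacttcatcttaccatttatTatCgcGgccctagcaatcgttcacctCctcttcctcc
Gm11410: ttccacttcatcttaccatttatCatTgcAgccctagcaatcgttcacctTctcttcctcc

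Reads that fit both a gene and its copy cannot be assigned to either, and the sources used here do not say how the authors' counting treated them. Over the 9 libraries mt-Co2 had 294 counts and its copies Gm28661 and Gm13341 had 380 and 329. mt-Atp6 had 2160 and Gm10925 had 3169, mt-Co3 had 408 and Gm28437 had 738, and mt-Nd3 had 564 and Gm28438 had 278. mt-Cytb had 295154 counts, against 70 for its copy Gm11410. The counts of mt-Co2, mt-Atp6, mt-Co3, mt-Nd3 and mt-Nd4l are therefore uncertain as levels, those of mt-Co1 and mt-Nd4 are so in part, and the part of the copies in the low counts was not tested.

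The mRNA total varied more than 7-fold between libraries, and the rRNA total about 3-fold, in a different order. The mRNAs took 1.03, 1.13 and 1.89 percent of counts in control libraries 1 to 3, 0.783, 2.77 and 4.42 percent with 6% ethanol, and 0.637, 0.572 and 1.56 percent with 10% ethanol. The rRNAs took 6.02, 8.89 and 5.28 percent in controls, 11.5, 4.59 and 6.08 percent with 6% ethanol, and 14.8, 10.4 and 11.4 percent with 10% ethanol. The 6% ethanol libraries 2 and 3 thus had the most mRNA with low to middling rRNA, and all 3 of the 10% ethanol libraries had more rRNA than any control. There were 21.9 ± 12.3 mRNA counts for 100 rRNA counts in controls, 46.6 ± 35.0 with 6% ethanol and 7.84 ± 5.13 with 10% ethanol (SD, n = 3 each). By library the ratio was 17.1, 12.7 and 35.9 in controls, 6.83, 60.3 and 72.7 with 6% ethanol, and 4.30, 5.50 and 13.7 with 10% ethanol. The mean of the 10% ethanol libraries was 4.90 without 10% ethanol 3. By header form the same ratio was 13.7 to 72.7 in the 5 short-header libraries and 4.30 to 12.7 in the 4 long-header libraries, without overlap.

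**Figure D2:**
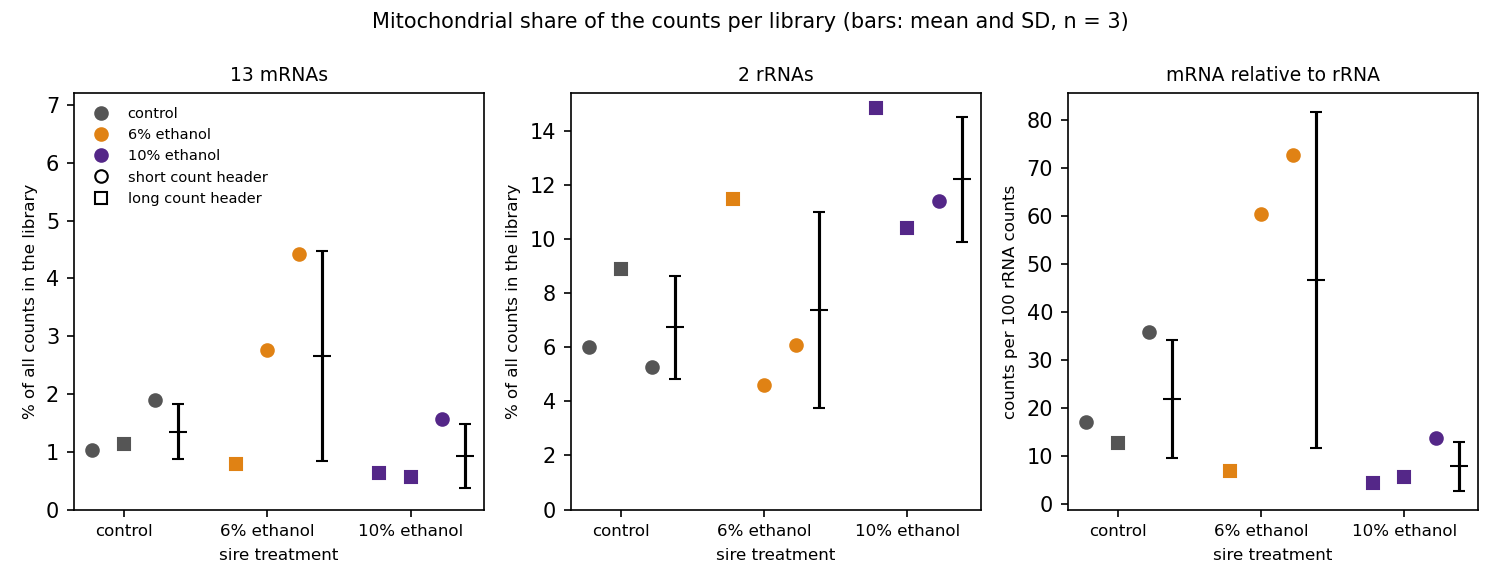
Percent of library counts in the 13 mRNAs and in the 2 rRNAs, and mRNA counts per 100 rRNA counts, in each library by sire treatment, with mean and SD (n = 3) beside the points and squares for long-header libraries. The 6% ethanol libraries 2 and 3 stand highest for mRNA, at 2.77 and 4.42 percent, and all 10% ethanol libraries lie above the controls for rRNA.

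Against control, the 10% ethanol libraries had more mt-Rnr2 and, in the mean, less of the mRNAs, and neither difference passed the test. mt-Rnr2 had 147348, 103615 and 113363 CPM in the 10% ethanol libraries, against 59839, 88691 and 51757 CPM in controls. Every 10% ethanol library lay above every control, with a log2 fold change of 1.0 ± 0.37 SE by edgeR's quasi-likelihood test (unadjusted p = 0.0181, Benjamini-Hochberg adjusted p = 0.9999). The difference had the same direction within each header form, with values of 0.75 (long) and 1.01 (short). The first rests on control 2 as the only control and the second on 10% ethanol 3 alone for its dose. By header form mt-Rnr2 had 88691 to 147348 CPM in long-header and 44438 to 113363 CPM in short-header libraries. Long headers belong to 10% ethanol 1 and 2 but only to control 2 among controls, so header form and sire group are partly mixed. mt-Rnr2 was the only member of the 21 tested with non-overlapping higher libraries, where 2.92 percent of all tested genes were so. mt-Atp8, a small subunit of ATP synthase, was the only one with non-overlapping lower libraries, where 4.8 percent of all tested genes were so, at 0, 0.109 and 0 CPM with 10% ethanol, against 0.181, 0.127 and 1.32 CPM in controls. These were 0, 3 and 0 counts, against 2, 3 and 9 counts. Since 10% ethanol 2 and control 2 both had 3 counts, only their library totals set them apart, and the separation is not informative. The nuclear encoded 18S rRNA gene Rn18s took 1.92 percent of counts in 10% ethanol 1 and 1.28 percent in control 1, and at most 0.119 percent in the other libraries, and its part in the mt-Rnr2 levels was not tested. mt-Rnr1 had 827, 406 and 498 CPM with 10% ethanol, against 334, 204 and 999.7 CPM in controls (0.23 ± 0.64 SE, adjusted p = 0.9999), and the groups overlapped.

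Of the 13 mRNAs all lay below 0 for 10% ethanol against control, with a median log2 fold change of -0.55 beside -0.05 over all 12488 tested genes, of which 52.9 percent lay below 0. mt-Atp8 and mt-Nd4l passed the filter on low counts only through libraries of the other groups, so their direction is no support for a difference. In a fit of only the groups compared, 11 mRNAs passed the filter and all 11 lay below 0, with a median of -0.498. edgeR passed no member and none of the 12488 genes (0.0 percent) at an adjusted p under 0.05. Without adjustment 267 genes (2.14 percent) had p under 0.05, of which 0.857 percent of tested genes were higher, mt-Rnr2 included, and 1.28 percent lower, with no mRNA in either. DESeq2 called 10 genes (0.0801 percent) and limma voom 0 (0.0 percent), none of them mitochondrial. mt-Nd4, a complex I subunit, had 336, 207 and 976 CPM with 10% ethanol, against 718, 475 and 1676 CPM in controls (-0.89 ± 0.88 SE). mt-Nd6, also of complex I, had 73.9, 50.2 and 94.8 CPM with 10% ethanol, against 131, 85.2 and 154 CPM in controls (-0.67 ± 0.60 SE). In both genes the groups overlapped. The mRNA direction rested on control 3, the control with the most mitochondrial mRNA, since the median without it was 0.16, with 8 of 13 above 0. With header form as a term the median was 0.03.

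At 6% ethanol the mRNAs had higher means than in controls throughout, from 2 of the 3 libraries. All 13 lay above 0, with a median of 1.57 beside -0.01 over all tested genes, of which 49.5 percent lay above 0. mt-Nd1 had 2641, 8901 and 12873 CPM with 6% ethanol, against 1804, 2907 and 5617 CPM in controls (1.56 ± 0.63 SE). mt-Cytb had 1288, 4960.4 and 9091 CPM with 6% ethanol, against 1335, 1442 and 3188 CPM in controls (1.69 ± 0.70 SE). mt-Nd2, a complex I subunit, had 605, 1850.3 and 3419 CPM with 6% ethanol, against 333, 546 and 1186 CPM in controls (1.82 ± 0.68 SE). In each of the 3, libraries 2 and 3 of the 6% group lay above all controls, while library 1 lay among the controls for mt-Nd1 and mt-Nd2 and just below them for mt-Cytb. mt-Nd5 (1.57 ± 0.60 SE), mt-Nd4 (1.70 ± 0.89 SE) and mt-Nd6 (1.26 ± 0.61 SE) had the same pattern of libraries 2 and 3 above all controls, and no mRNA had groups that did not overlap (1.73 percent of tested genes were higher without overlap).

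edgeR passed no member and none of all tested genes (0.0 percent) at 6% ethanol against control, with adjusted p of 0.799 to 0.903 over the 13 mRNAs. Without adjustment 779 genes (6.24 percent) had p under 0.05, of which 399 were higher (3.2 percent), among them mt-Nd1, mt-Nd2, mt-Nd5 and mt-Cytb. DESeq2 called 30 genes (0.24 percent) and limma voom 0 (0.0 percent), none of them mitochondrial. mt-Co1 stood apart from the other abundant mRNAs, with 1776, 5773 and 9965 CPM with 6% ethanol, against 5359, 4889 and 5132 CPM in controls (0.54 ± 0.68 SE). Its 6% libraries lay on both sides of the 3 controls, and its value was -0.19 without 6% ethanol 3. mt-Rnr1 had 559, 1419.5 and 718 CPM with 6% ethanol (1.07 ± 0.65 SE) and mt-Rnr2 had 114099, 44438 and 60099 CPM (0.38 ± 0.37 SE), both overlapping the controls. The median of the mRNAs was 2.43 without control 3 and 1.05 without 6% ethanol 3. It was 1.79 over the short-header libraries and 0.33 between the single long-header library of each group, which was a value with no spread of its own.

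The doses were also compared directly, with the libraries of 10% ethanol lower in mRNA. All 13 mRNAs lay below 0 (median -2.05, beside -0.02 over all tested genes, of which 50.5 percent lay below 0). mt-Nd5, a complex I subunit, had 933, 759 and 1091 CPM with 10% ethanol, against 1166, 2556 and 4515 CPM with 6% ethanol (-1.80 ± 0.60 SE). mt-Atp6, a subunit of the proton channel of ATP synthase, had 10.6, 12.8 and 13.9 CPM with 10% ethanol, against 14.4, 48.4 and 34.6 CPM with 6% ethanol (-1.62 ± 0.87 SE). In both, every 10% ethanol library lay below every 6% ethanol library. This held for 4 of the 13 mRNAs, the others being mt-Co3 and mt-Atp8, where 2.75 percent of all tested genes were so. With 10% ethanol mt-Atp8 was near 0 and passed the filter on low counts only through libraries of the other groups. Its place among the 4 is therefore no support for a difference. mt-Nd4l had 3, 1 and 4 counts with 10% ethanol and also passed only through libraries of the other groups. The count of 13 below 0 takes no support from these 2 genes. In a fit of only the groups compared, 11 mRNAs passed the filter and all 11 lay below 0, with a median of -2.03.

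mt-Atp8 had 0, 3 and 0 counts with 10% ethanol, against 5, 16 and 14 counts with 6% ethanol, and mt-Co3 had 29, 65 and 11 counts with 10% ethanol, against 75, 66 and 66 with 6% ethanol, so both rest on few reads. By edgeR no member and none of all tested genes (0.0 percent) passed between the doses, with adjusted p of 0.806 to 0.81 over the mRNAs. Without adjustment 665 genes (5.33 percent) had p under 0.05, with 7 mRNAs among the lower ones (3.07 percent of tested genes). They were mt-Nd1, mt-Nd2, mt-Nd4, mt-Nd5, mt-Nd6, mt-Cytb and, with the limit from the filter given above, mt-Atp8. DESeq2 called 31 genes (0.248 percent) and limma voom 0 (0.0 percent), with no mitochondrial gene in either. When every gene with a count in at least 1 library was tested (26610 genes), edgeR passed 147 (0.552 percent), among them mt-Nd4 (adjusted p = 0.000823), mt-Nd1 (0.00678), mt-Cytb (0.00990) and mt-Nd2 (0.0320). The doses overlapped in each of these genes. For mt-Nd4, 6% ethanol 1 had 249 CPM, beside 207 to 976 CPM in the 10% ethanol libraries. With the same filter no member passed against control, where 47 genes (0.177 percent) passed at 10% and 140 (0.526 percent) at 6% ethanol. The mRNA median was -2.06 in short-header libraries, where the 10% group has 1 library, and -0.31 in long-header libraries, where the 6% group has 1. It was -1.45 without 6% ethanol 3.

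The low mRNAs, which are uncertain as levels, had 6% ethanol 2 and 3 among their 3 highest libraries. mt-Co2, the subunit of cytochrome c oxidase that receives electrons from cytochrome c, had 0.998, 0.807 and 3.67 CPM in controls, 1.32, 6.23 and 8.98 CPM with 6% ethanol, and 1.58, 0.688 and 2.66 CPM with 10% ethanol. mt-Co3, of the same complex, had 1.36, 1.36 and 7.19 CPM in controls, 3.30, 10.5 and 6.05 CPM with 6% ethanol, and 1.48, 2.35 and 1.33 CPM with 10% ethanol. mt-Nd3, of complex I, had 3.81, 1.06 and 11 CPM in controls, 1.63, 10.5 and 19.0 CPM with 6% ethanol, and 1.99, 1.67 and 3.26 CPM with 10% ethanol. Control 3 and 6% ethanol 2 and 3 held the 3 highest values of these 3 genes and of 11 of the 13 mRNAs in all, mt-Co1 and mt-Nd4l being the exceptions. mt-Nd4l, also of complex I, had 0.998, 0.0849 and 0.440 CPM in controls, 0.0879, 2.08 and 3.67 CPM with 6% ethanol, and 0.153, 0.0362 and 0.483 CPM with 10% ethanol.

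**Figure D3:**
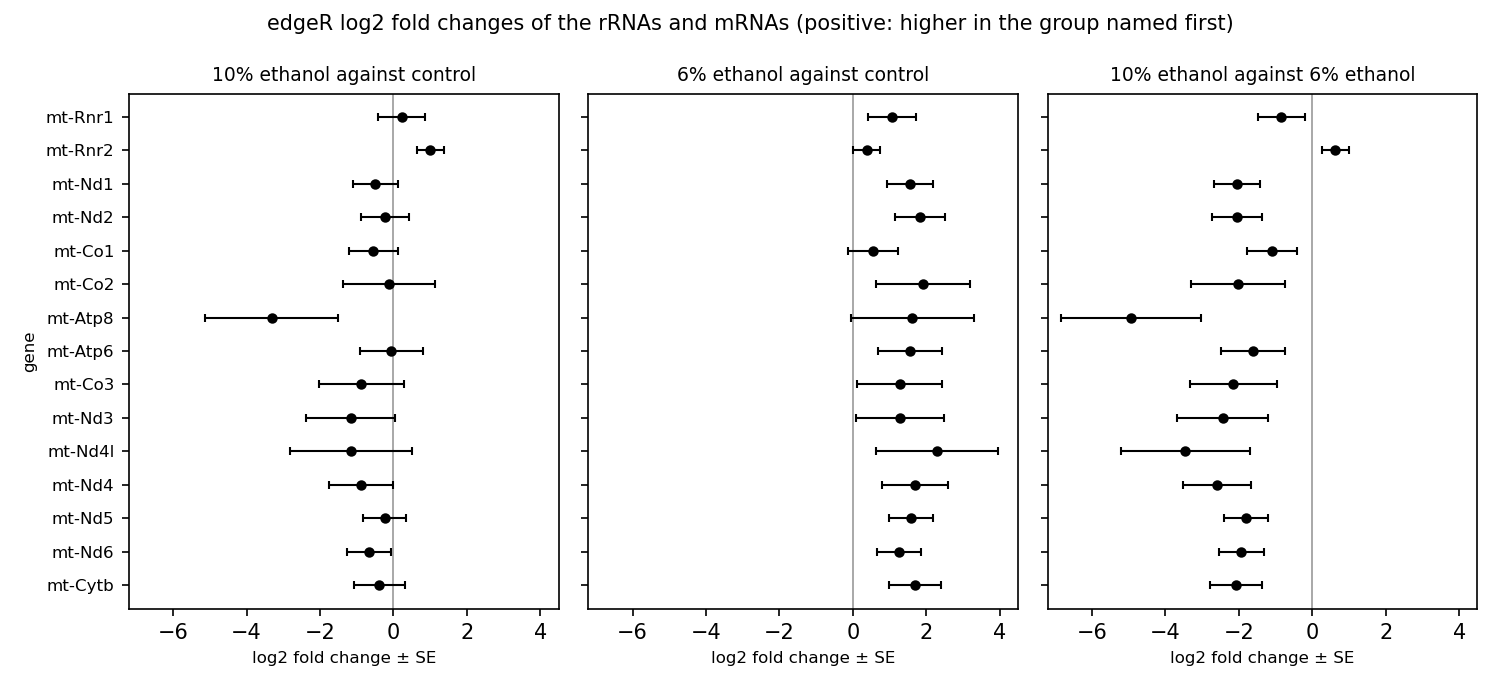
Log2 fold changes with SE from edgeR for the 2 rRNAs and 13 mRNAs in the 3 comparisons, genes in genome order from top to bottom. mt-Rnr2 lies to the right of 0 for 10% ethanol against control, at 1.0, while the mRNAs lie to its left there, with a median of -0.55, and to the right for 6% ethanol, with a median of 1.57.

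The make-up of the mRNA counts differed between libraries as well as their total. Over the 9 libraries the SD of log2 CPM was 0.91 to 1.56 for the 7 abundant mRNAs, and that of the log2 share of the mRNA total was 0.24 (mt-Cytb) to 0.64 (mt-Nd4), so these mRNAs moved largely together. mt-Co1 held 22.7, 20.9 and 22.5 percent of the mRNA counts with 6% ethanol, against 52.2, 43.3 and 27.1 percent in controls, and every library of the 6% group lay below every control. With 10% ethanol it held 24.1, 26.9 and 44.3 percent, which overlapped the controls. Complex I genes together held 60.6, 61.0 and 56.8 percent with 6% ethanol, against 34.8, 43.8 and 55.8 percent in controls. They did not overlap either, but 6% ethanol 3 and control 3 were close. The share of mt-Nd1, the largest of complex I, overlapped at 33.7, 32.2 and 29.1 against 17.6, 25.7 and 29.7 percent, and that of mt-Nd2 did not. These are shares of 1 total, so that a lower share of mt-Co1 is at the same time a higher share of the others, and they were not tested.

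The balance of mt-Nd4 to mt-Nd5, which are neighbours on the same strand, separated the libraries by header form, while the sire groups overlapped. There were 86.0 to 129 mt-Nd4 counts for 100 mt-Nd5 counts in the 5 short-header libraries and 21.3 to 51.0 in the 4 long-header libraries. Each group held libraries of both kinds. mt-Nd4 itself had 718 to 3881 CPM in short-header and 207 to 475 CPM in long-header libraries. Of the 13 mRNAs, 5 did not overlap between the header forms, all higher in short-header libraries (mt-Co1, mt-Nd3, mt-Nd4l, mt-Nd4 and mt-Nd6), where 4.12 percent of all tested genes were so. None was higher in long-header libraries, where 4.79 percent of tested genes were so. Neither rRNA was among them. mt-Nd4l had 2, 2, 3 and 1 counts in control 2, 6% ethanol 1, 10% ethanol 1 and 10% ethanol 2. It passed the filter on low counts only through short-header libraries, so its place among the 5 is no support for a header difference. Of these 5 genes all but mt-Nd6 have a near-identical nuclear copy over part or nearly all of their length. Such a copy was found for 7 of the 13 mRNAs, and mt-Co2, mt-Atp6 and mt-Co3 among them overlapped between the header forms. The part of the copies in the header difference was not tested. The summed level of the 12 morula genes also differed by header form, at 1394 to 1873 CPM in short-header and 2509 to 3237 CPM in long-header libraries, and its part was not tested.

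**Figure D4:**
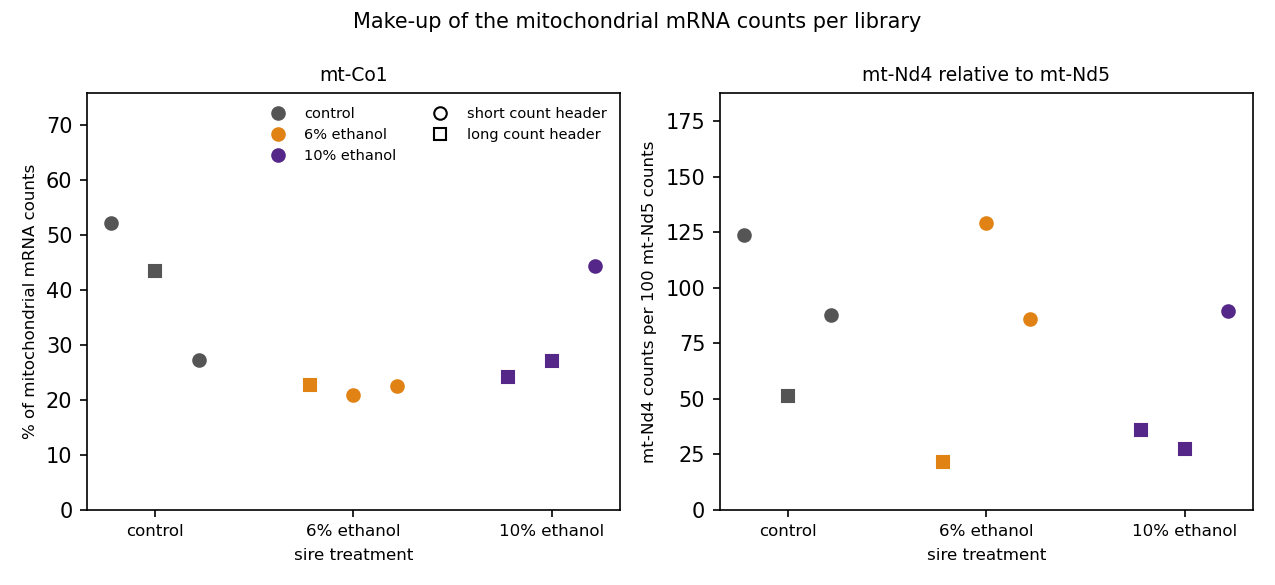
Share of mt-Co1 in the mitochondrial mRNA counts, and mt-Nd4 counts per 100 mt-Nd5 counts, in each library by sire treatment, with squares for long-header libraries. The 6% ethanol libraries lie at 20.9 to 22.7 percent for mt-Co1, below all controls, and the squares lie at 51.0 or less for mt-Nd4, below all circles.

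mt-Nd6 needs a strand to be measured, since it lies opposite to the long precursor that carries mt-Nd5 and mt-Cytb. The sources used here do not say whether the counting used strand, so its counts may hold reads of the opposite precursor. There were 6.62 to 9.23 mt-Nd6 counts for 100 mt-Nd5 counts in 8 libraries and 22.6 in control 1, which made it a steady ratio apart from that library.

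The tRNAs were near the limit of these libraries. Only 6 of 22 passed the filter on low counts, and the other 16 had at most 25 counts in a library and 368 over all of them together. mt-Tk, for lysine, had no count in any library, which allows up to 3 counts a library by counting error alone. mt-Tl1, the leucine tRNA that directly follows mt-Rnr2, was the most counted. It had 4.63, 26.7 and 10.6 CPM in controls, 20.8, 17.6 and 25.9 CPM with 6% ethanol, and 13.8, 14.0 and 8.69 CPM with 10% ethanol. Every 10% library lay below every 6% library, and the controls spanned both. Its log2 fold change between the doses was -0.98 ± 0.80 SE (adjusted p = 0.819).

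For 3 other tRNAs the libraries with much mRNA stood out. mt-Ti, for isoleucine, mt-Tq, for glutamine, and mt-Tp, for proline, are shown here with mt-Tl1 because they set apart the libraries; mt-Tq and mt-Tp are among the 8 tRNAs on the strand of mt-Nd6 and the other 2 are among the 14 of the opposite strand. Each is the mitochondrial gene sequence of GENCODE M21 (GRCm38), 5′ to 3′ in the direction of the tRNA, before the CCA end is added.
mt-Tl1: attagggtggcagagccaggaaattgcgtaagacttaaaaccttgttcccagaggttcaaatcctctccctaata
mt-Ti: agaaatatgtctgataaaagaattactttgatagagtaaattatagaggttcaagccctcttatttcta
mt-Tq: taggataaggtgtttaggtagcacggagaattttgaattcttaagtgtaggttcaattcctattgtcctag
mt-Tp: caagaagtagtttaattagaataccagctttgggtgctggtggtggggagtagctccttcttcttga

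mt-Ti had 46 counts in control 3, 97 in 6% ethanol 2 and 68 in 6% ethanol 3, the libraries with the most mitochondrial mRNA, and 1 to 14 counts in the other 6. mt-Tq had 36, 80 and 74 counts in those libraries and 2 to 10 in the others, and mt-Tp had 63, 99 and 73 and 1 to 11. The other 6 include the deepest libraries. As a share of all mitochondrial tRNA counts the 3 tRNAs together stood at 49.3, 54.4 and 33.6 percent in the first set of libraries and at 2.85 to 20.1 percent in the others. The 3 tRNAs were picked because they stood out in these libraries, so the share restates that choice and adds no support. For mt-Tq the log2 fold change between 10% and 6% ethanol was -4.37 ± 1.80 SE (unadjusted p = 0.0310, adjusted p = 0.806). For mt-Tp it was -3.70 ± 1.96 SE (adjusted p = 0.806), from 0.562, 0.253 and 1.33 CPM with 10% ethanol, against 0.0440, 15.8 and 6.69 CPM with 6% ethanol. The groups overlapped in both. With 10% ethanol mt-Tq had 2, 10 and 6 counts, and it passed the filter on low counts only through libraries of the other groups. Its value between the doses is therefore no support for a difference. mt-Tn, for asparagine, had 0.816 to 4.47 CPM in the 5 short-header libraries and 0.181 to 0.764 CPM in the 4 long-header libraries. mt-Tc, for cysteine, had 1.63 to 7.66 CPM in short-header and 0.507 to 1.58 CPM in long-header libraries. These 2 of the 6 tested tRNAs did not overlap between the header forms, where 4.12 percent of all tested genes were higher in short-header libraries without overlap, and both overlapped between the sire groups. mt-Tn passed the filter on low counts only through short-header libraries, so its place here is no support for a header difference.

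**Figure D5:**
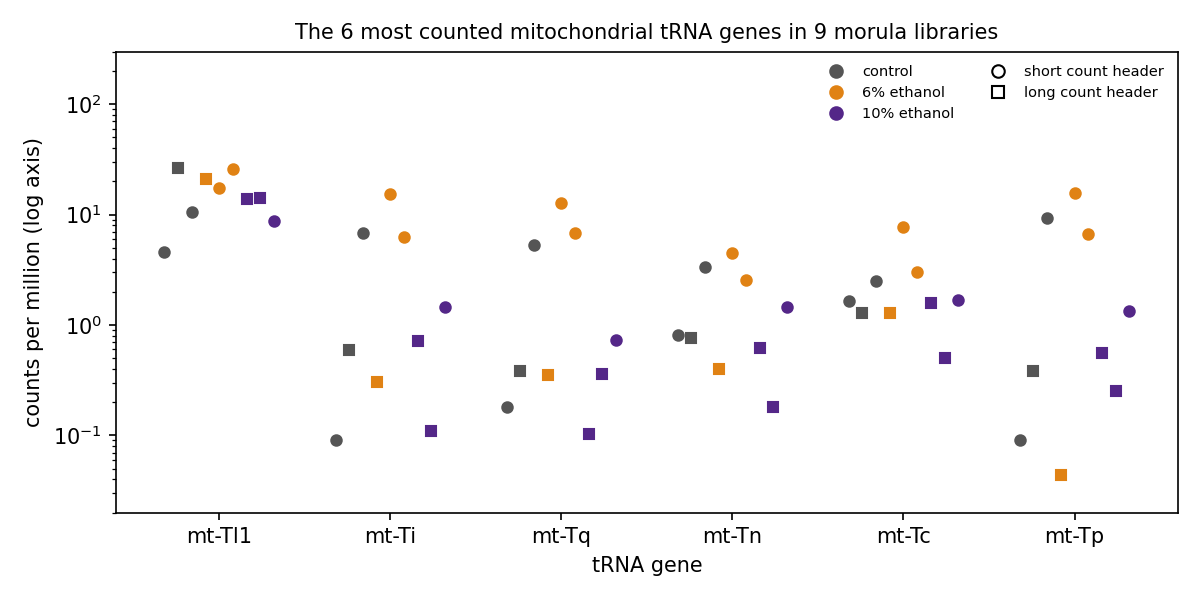
CPM (log axis) of the 6 mitochondrial tRNA genes that passed the filter on low counts, each point a library, coloured by sire treatment and shaped by count header. mt-Tl1 is spread over 4.63 to 26.7 CPM, whereas control 3 and 6% ethanol 2 and 3 stand highest for mt-Ti, mt-Tq and mt-Tp.

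The nuclear genes that make and trim these RNAs lay on both sides of 0 in each comparison. Of the 34 tested of 35 genes of mitochondrial transcription, replication and RNA decay, 18 lay above 0 and 16 below for 6% ethanol against control, with a median of 0.05. For 10% ethanol against control it was 18 above and 16 below (median 0.11), and between the doses 14 above and 20 below (median -0.15). No member passed in any comparison. Tfam, which packages mitochondrial DNA and starts its transcription, had 63.5, 66.0 and 60.6 CPM in controls, 60.8, 56.4 and 47.5 CPM with 6% ethanol and 31.7, 65.9 and 33.8 CPM with 10% ethanol, and the groups overlapped. Polrmt had 10.3, 6.92 and 19.7 CPM in controls, 9.72, 3.67 and 11.9 CPM with 6% ethanol and 17.1, 11.2 and 32.4 CPM with 10% ethanol. Tfb2m had log2 fold changes of 0.50 ± 0.53 SE at 6% and 0.40 ± 0.53 SE at 10% ethanol against the same controls. Lrpprc, which stabilises mitochondrial mRNAs, had -0.31 ± 0.63 SE at 6% and -0.66 ± 0.63 SE at 10% ethanol.

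In that list the gene of smallest p for 6% ethanol against control was Lonp1. Lonp1, the matrix protease that degrades TFAM among others, had 193, 914 and 324 CPM with 6% ethanol, against 79.4, 166 and 93.1 CPM in controls, without overlap (2.45 ± 0.62 SE, adjusted p = 0.799). It had 112, 176 and 183 CPM with 10% ethanol, below every 6% library, where 2.75 percent of all tested genes were so. Supv3l1, the helicase of the mitochondrial RNA degradosome, had 213, 68.8 and 54.7 CPM with 6% ethanol, against 273, 238 and 293 CPM in controls, also without overlap (-1.07 ± 0.51 SE, adjusted p = 0.802). It had 225, 304 and 182 CPM with 10% ethanol. For 6% ethanol against control, 1.73 percent of all tested genes were higher without overlap, and 822 of the 12488 were lower without overlap. At 10% ethanol against control the smallest p were those of Mterf1a, of the family of mitochondrial termination factors (-3.29 ± 1.31 SE), and Pnpt1, the polynucleotide phosphorylase that works with Supv3l1. Mterf1a was low throughout, at 0.307, 0.398 and 1.57 CPM with 10% ethanol, against 7.07, 1.83 and 13.4 CPM in controls. Pnpt1 had 14.3, 17.6 and 26.1 CPM with 10% ethanol, against 42.5, 30.8 and 35.2 CPM in controls, without overlap (-0.81 ± 0.64 SE). In that comparison 4.8 percent of all tested genes were lower without overlap. Between the doses Tbrg4, of the FASTK family of mitochondrial RNA-binding proteins, had 72.7, 39.2 and 50.3 CPM with 10% ethanol, against 32.8, 9.58 and 14.7 CPM with 6% ethanol (1.41 ± 0.62 SE, adjusted p = 0.806).

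Of 26 genes that process or modify mitochondrial tRNAs and rRNAs, all tested, 15 lay above 0 at 6% ethanol against control (median 0.32), 13 at 10% ethanol (median -0.02) and 13 between the doses (median 0.08), and none passed. Qtrt2, a subunit of the enzyme that places queuine in tRNAs, had 67.0, 76.2 and 40.5 CPM with 6% ethanol, against 18.8, 20.0 and 28.8 CPM in controls, without overlap (1.71 ± 0.61 SE, adjusted p = 0.799), where 1.73 percent of all tested genes were so. It had 35.6, 24.9 and 19.1 CPM with 10% ethanol. Mtfmt, which formylates the initiator methionine tRNA, was high in a single library, at 129 CPM in 6% ethanol 2 and 7.61 to 28.7 CPM in all others. Qtrt1, the catalytic partner of Qtrt2, had 15.4, 20.0 and 5.92 CPM with 10% ethanol, against 7.16, 4.80 and 2.64 CPM in controls (1.66 ± 0.96 SE), and the groups overlapped. Mrm3, a methyltransferase of the 16S rRNA, had 32.2, 31.3 and 26.4 CPM with 10% ethanol, against 22.1, 18.0 and 9.69 CPM in controls, without overlap (1.0 ± 0.68 SE, adjusted p = 0.9999), where 2.92 percent of all tested genes were so.

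The nuclear encoded core subunits that share complexes with the mitochondrial products lay on both sides of 0, and none passed. Of 26 genes, all tested, 16 lay below 0 at 6% ethanol against control (median -0.09, beside -0.01 over all tested genes). At 10% ethanol against control 19 lay below 0 (median -0.12, beside -0.05 over all tested genes, of which 52.9 percent lay below 0). Between the doses it was 17 (median -0.15, beside -0.02 over all tested genes, of which 50.5 percent lay below 0). Cox5b, a subunit of cytochrome c oxidase, had 27.7, 399 and 20.3 CPM with 6% ethanol, against 54.5, 68.3 and 104 CPM in controls, a mean set by 6% ethanol 2 alone. Ndufv2, a core subunit of complex I, had 22.8, 40.6 and 55.5 CPM with 6% ethanol, against 29.4, 26.0 and 28.0 CPM in controls (0.84 ± 0.63 SE, adjusted p = 0.846). Cox7b, a small subunit of cytochrome c oxidase, had 3.68, 2.10 and 19.1 CPM with 10% ethanol, against 6.26, 18.6 and 71.9 CPM in controls (-1.97 ± 1.13 SE). Cox7a2, of the same complex, had 44.0, 45.0 and 91.3 CPM with 10% ethanol, against 38.8, 83.6 and 347 CPM in controls (-1.36 ± 0.89 SE), and both overlapped. Cox6c, also of cytochrome c oxidase, had 43.2, 17.3 and 175 CPM with 10% ethanol, against 26.3, 565 and 116 CPM with 6% ethanol (-1.89 ± 1.03 SE).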

How the data were processed

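The authors deposited raw counts per gene for each of 9 libraries, made with featureCounts against GRCm39 per the submitters' processing notes, which also name DESeq2. The file headers of 4 libraries name RNA STAR. The sources used here give no versions, annotation, strand or multi-mapping settings. The mitochondrial genes and all lists and tests were chosen with earlier results of these data known. Replicates are numbered in accession order. CPM and shares are on full library totals. The filterByExpr function of edgeR kept 12488 genes, libraries were scaled by TMM, and a single quasi-likelihood fit took in all 9 libraries in 3 groups, with p-values adjusted by Benjamini-Hochberg over all tested genes at a threshold of 0.05. A standard error is the fold change divided by the root of its F value. The fit was tried on simulated counts. Named genes were all 37 mitochondrial rows, Tfam, Polrmt, Tfb2m, Lrpprc and the 2 smallest-p genes of each nuclear list and comparison. Gene order, strand, length and sequence came from GENCODE M21 (GRCm38), matched by symbol for 37 of 37, and no coordinates are given because the files use another build. Nuclear copies were sought with blastn. Versions used were edgeR 4.0.16, DESeq2 1.42.0 and limma 3.58.1, run in R 4.3.3. Alternatives were other scalings, filters, tools and fits, header form, and each library left out. Limits from zero counts cover counting error only.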

Additional observations from a re-analysis of the deposited data

How the results depend on the processing

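No member passed an adjusted p under 0.05 under any alternative except 1: with every gene of at least 1 count tested, 4 members passed between the doses. mt-Rnr2 was higher in 10% ethanol than in control libraries under every alternative. For 10% ethanol against control the mRNA median was 0.028 with header form as a term and -0.0053 in long-header libraries, and -0.85 to 0.16 leaving out each library, the highest without control 3. At 6% ethanol against control it was 0.33 in long-header libraries and 1.05 to 2.43 leaving out each library. Between the doses it was -0.31 in long-header libraries. For 10% ethanol against control these genes changed sign. With limma voom the values were mt-Nd2 0.0043, mt-Co2 0.25, mt-Atp6 0.52, mt-Co3 0.053 and mt-Nd5 0.061. With a term for header form, the values were mt-Nd2 0.17, mt-Co2 0.64, mt-Atp6 0.28, mt-Nd3 0.29, mt-Nd4l 0.22, mt-Nd5 0.12 and mt-Cytb 0.028. In long-header libraries they were mt-Co2 0.74, mt-Atp6 0.33, mt-Co3 0.75, mt-Nd3 1.03 and mt-Nd5 0.11. In short-header libraries they were mt-Rnr1 -0.47, mt-Co1 0.39, mt-Co2 0.14 and mt-Cytb 0.064. Leaving out each library gave ranges of -0.16 to 1.28 for mt-Rnr1, -0.80 to 0.16 for mt-Nd1, -0.56 to 0.53 for mt-Nd2, -0.56 to 1.0 for mt-Co2, -0.51 to 0.97 for mt-Atp6, -1.26 to 0.53 for mt-Co3, -1.66 to 0.067 for mt-Nd3, -0.55 to 0.47 for mt-Nd5 and -0.875 to 0.23 for mt-Cytb. At 6% ethanol against control mt-Co1 was -1.28 and mt-Nd4 -0.75 in long-header libraries, and mt-Co1 ran from -0.19 to 0.98 leaving out each library. Between the doses mt-Rnr1 was 0.21, mt-Nd3 0.24 and mt-Nd4 0.20 in long-header libraries. The cause was not tested. Scaling by library totals alone moved the median of all genes to -0.17, -0.28 and 0.13 in the 3 comparisons, and all 13 mRNAs lay on the same side of 0 as with TMM. No paired analysis was possible because the labels give no replicate numbers that the groups share. Low counts limit the tRNAs, mt-Atp8 and mt-Nd4l.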
